A study of Mus musculus with 10 samples.

Results

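Messenger RNAs of the cytosolic ribosomal proteins were measured by RNA-seq in C3H10 T1/2 cells, a mouse embryo line with fibroblast-like and mesenchymal properties, in 3 libraries of cells under cyclic mechanical strain and 3 libraries of control cells. The members were all rows of the count table whose symbol is Rpl or Rps with a number, together with Rpsa, Rplp0, Rplp1 and Rplp2. The number could be followed by a, x, y or l, and that letter by a further number, as in Rps3a1. Rows named as pseudogenes and the ribosomal S6 kinases were not members. The rule gave 89 of 46095 rows, of which 85 had enough reads for the test. The other 4 were Rpl3l, Rpl10l, Rpl32l and Rps4l, and Rpl10l had no read in any library. A RefSeq gene table lists 5 of the 89 as pseudogenes in spite of their symbols, namely Rpl6l, Rps3a2, Rps3a3, Rps4l and Rps12l1.

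Strained cells grew for 48 h on flexible plates coated with collagen and were then stretched by 10% at 0.5 Hz for 8 h a day over 3 days. The control cells of the RNA-seq set carry the treatment label control, and the series' design text calls the comparison one of strain with static culture. Both groups carry the strain label C57BL/6. Chromatin accessibility was measured by ATAC-seq in 2 libraries of cells in which Piezo1, a mechanically gated ion channel, was knocked out with CRISPR/Cas9 and 2 libraries of GFP control cells of the same line, none of them labelled as strained. How many knockout clones were used, and whether the replicates of either set came from separate cultures, is not given in the sources used here. The p-values below are therefore set against the variation among these libraries, part or all of which may be technical. RNA-seq libraries held 36150738 to 41024689 counts.

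A ribosome is built of a small subunit, which reads the messenger RNA, and a large subunit, which joins the amino acids, and each cytosolic ribosomal protein is normally present as a single copy, apart from the acidic stalk proteins. Their messenger RNAs are abundant in growing cells and begin with a C followed by a run of pyrimidines, the terminal oligopyrimidine (TOP) motif. Through this motif the kinase mTOR and the RNA-binding protein LARP1 control their translation and stability as a group.

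The start of the transcript was looked for in a RefSeq promoter table of the mouse build GRCm38.p6, which held 64 of the 89 members. In 12 of these 64 (18.8%) the annotated first base was a C followed by at least 5 further C or T bases, against 553 of 27025 promoters of all genes (2.05%). Annotated starts can lie some bases away from the start used in these cells, so a member without such a run here is not shown to lack the motif. Of the 12, 8 also had an open chromatin peak near the start in all 4 ATAC-seq libraries, and those 8 are shown, since the run of pyrimidines is the sequence that the group is known for. Each line gives 30 bases before the annotated start and 20 from it on, read in the direction of the gene. The capitals mark the run of pyrimidines that begins at the annotated start.
Rpl14: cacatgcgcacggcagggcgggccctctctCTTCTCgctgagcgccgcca
Rpl15: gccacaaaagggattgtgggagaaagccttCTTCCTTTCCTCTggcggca
Rpl28: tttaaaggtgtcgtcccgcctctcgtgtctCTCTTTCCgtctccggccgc
Rpl35a: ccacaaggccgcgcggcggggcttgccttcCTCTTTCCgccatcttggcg
Rpl38: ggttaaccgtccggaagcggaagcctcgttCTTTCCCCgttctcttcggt
Rps6: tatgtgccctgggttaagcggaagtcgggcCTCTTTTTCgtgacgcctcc
Rps10: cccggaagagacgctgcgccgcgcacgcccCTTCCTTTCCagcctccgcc
Rps18: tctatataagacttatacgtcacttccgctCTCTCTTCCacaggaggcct

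On GRCm38.p6 the window of Rpl14 is chr9:120571487-120571536 on the plus strand, that of Rpl28 is chr7:4792935-4792984 (plus), that of Rpl35a is chr16:33056452-33056501 (plus) and that of Rpl38 is chr11:114668550-114668599 (plus). On the minus strand lie those of Rpl15 (chr14:18270967-18271016), Rps6 (chr4:86857348-86857397), Rps10 (chr17:27635225-27635274) and Rps18 (chr17:33955646-33955695). The run was 13 bases long in Rpl15, 10 in Rps10, 9 in Rps6 and Rps18, 8 in Rpl28, Rpl35a and Rpl38 and 6 in Rpl14. Under strain 5 of these 8 genes were lower by the test described next (Rpl15, Rpl28, Rpl35a, Rps6 and Rps10), and 3 were not called. Over the tested members that the promoter table holds, 5 of 11 with such a start were called lower (median log2 fold change −0.59), and 22 of 50 without one (median −0.52). The difference between the 2 sets was not tested.

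Ribosomal protein messenger RNAs were lower in strained cells. In the fit over all genes 41 of the 85 tested members were lower and 0 were higher at an adjusted p under 0.05 (edgeR quasi-likelihood test, Benjamini-Hochberg over all tested genes), against 7.39% lower and 5.94% higher among all 15335 tested genes. Without the rows that RefSeq lists as pseudogenes 38 of 81 members were lower and 0 were higher. The unadjusted p was under 0.05 for 72 members in the lower direction and for 0 in the higher. Of all 15335 tested genes it was under 0.05 for 2322 in the lower direction and 2222 in the higher. DESeq2 called 64 members lower and limma-voom 43, and each called 0 higher. Over all genes DESeq2 called 1491 lower and 1291 higher of 25298, and limma-voom 1147 and 934 of 15335. The log2 fold change of strain over control was below 0 for 83 of the 85, with a median of −0.56 and a range of −0.86 to 0.17, while the median over all tested genes was 0.00. Every strain library lay below every control library for 61 of the 85 members, against 17.9% of all tested genes. These are bulk libraries, in which fewer cells of a type and less RNA per cell cannot be told apart.

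The summed level of all 89 rows was 36340.4, 31395.0 and 36061.6 CPM (reads of a gene scaled to a common library size, with TMM factors) in strain replicates 1 to 3, against 46039, 42689 and 62633 CPM in control replicates 1 to 3. All 3 strain libraries lay below all 3 control libraries, and control replicate 3 stood far above the other 2 controls. The means were 34599 ± 2778 CPM in strain libraries and 50454 ± 10680 CPM in control libraries (SD, n = 3 each), which is a ratio of 0.686. Set against control replicates 1 and 2 alone the ratio was 0.780, and control replicate 3 was 1.41 times the mean of those 2 libraries.

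**Figure D1:**
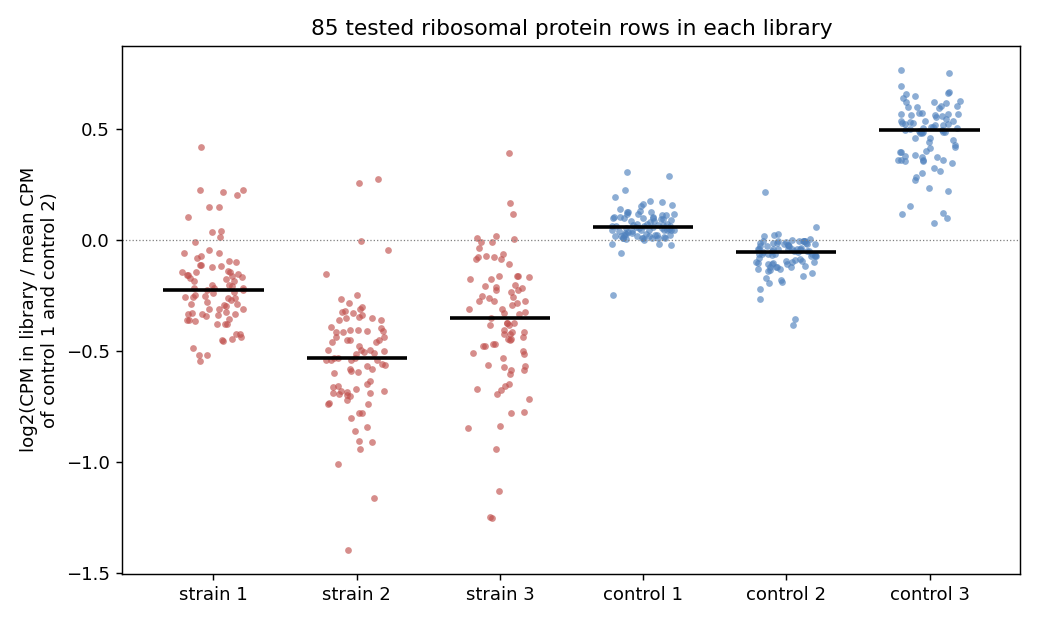
Level of each of the 85 tested ribosomal protein rows in each library, as log2 of its CPM over the mean CPM of control replicates 1 and 2 (vertical axis); points are genes, black bars are medians, strain libraries are red and control libraries blue. The strain libraries lie mostly below 0, with replicate 2 lowest, and control replicate 3 lies above 0 for the whole group.

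Control replicate 3 was the highest of the 6 libraries for 83 of the 85 members, against 28.2% of all tested genes; in the other 2, Rpl27 and Rpl7l1, strain replicate 1 was highest. Without control replicate 3 the fit called 19 members lower and 0 higher (63 and 1 at an unadjusted p under 0.05), against 5.36% lower among all tested genes, and all 19 were among the 41. The median log2 fold change was then −0.36, and 81 of the 85 were still below 0. The size of the difference thus depended on that library, and the count of calls depended on others as well. It was 2 without strain replicate 2, 5 without strain replicate 3, 16 without control replicate 1, 37 without strain replicate 1 and 64 without control replicate 2. In the same order 661, 577, 610, 1031 and 1244 of all tested genes were lower, against 1134 with all libraries. Those fits tested 15638 to 15754 genes. Only Rpl7 and Rpl10 were called with all libraries and with each of the 6 left out in turn, and each of the other 39 lost its call without at least 1 library.

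**Figure D2:**
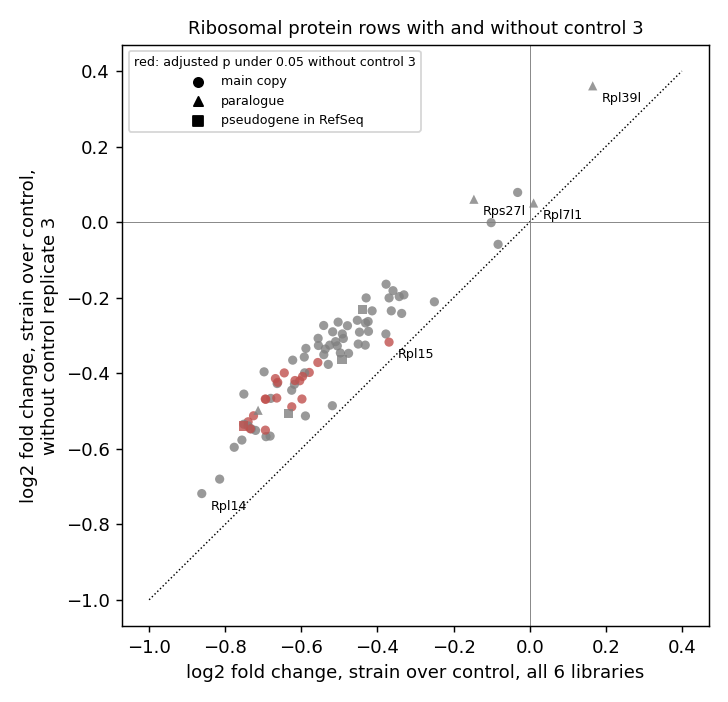
Log2 fold change of strain over control for each tested member with all 6 libraries (horizontal axis) and without control replicate 3 (vertical axis); the dotted line marks equal values, shapes give the kind of row and red marks the 19 members called lower without that library. All points but those of 4 rows lie below 0 on the vertical axis, and nearly all lie above the line.

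By subunit, 24 of 43 main large subunit rows were lower (median log2 fold change −0.59), as were 13 of 31 main small subunit rows (−0.54) and 0 of 3 stalk rows (−0.43), for which DESeq2 gave 2 and limma-voom 0. At an unadjusted p under 0.05 there were 39, 26 and 3 lower and 0 higher in these 3 classes, and whether the classes differ from one another was not tested. The summed CPM of the large subunit rows was 13597 ± 1223 in strain libraries and 20127 ± 4239 in control libraries, which is a ratio of 0.676. That of the small subunit rows was 14913 ± 1253 in strain libraries and 22183 ± 4888 in control libraries, which is a ratio of 0.672. For the stalk the sums were 5610.1 ± 519.5 CPM in strain libraries and 7505 ± 1448 CPM in control libraries (SD, n = 3 each), which is a ratio of 0.747.

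**Figure D3:**
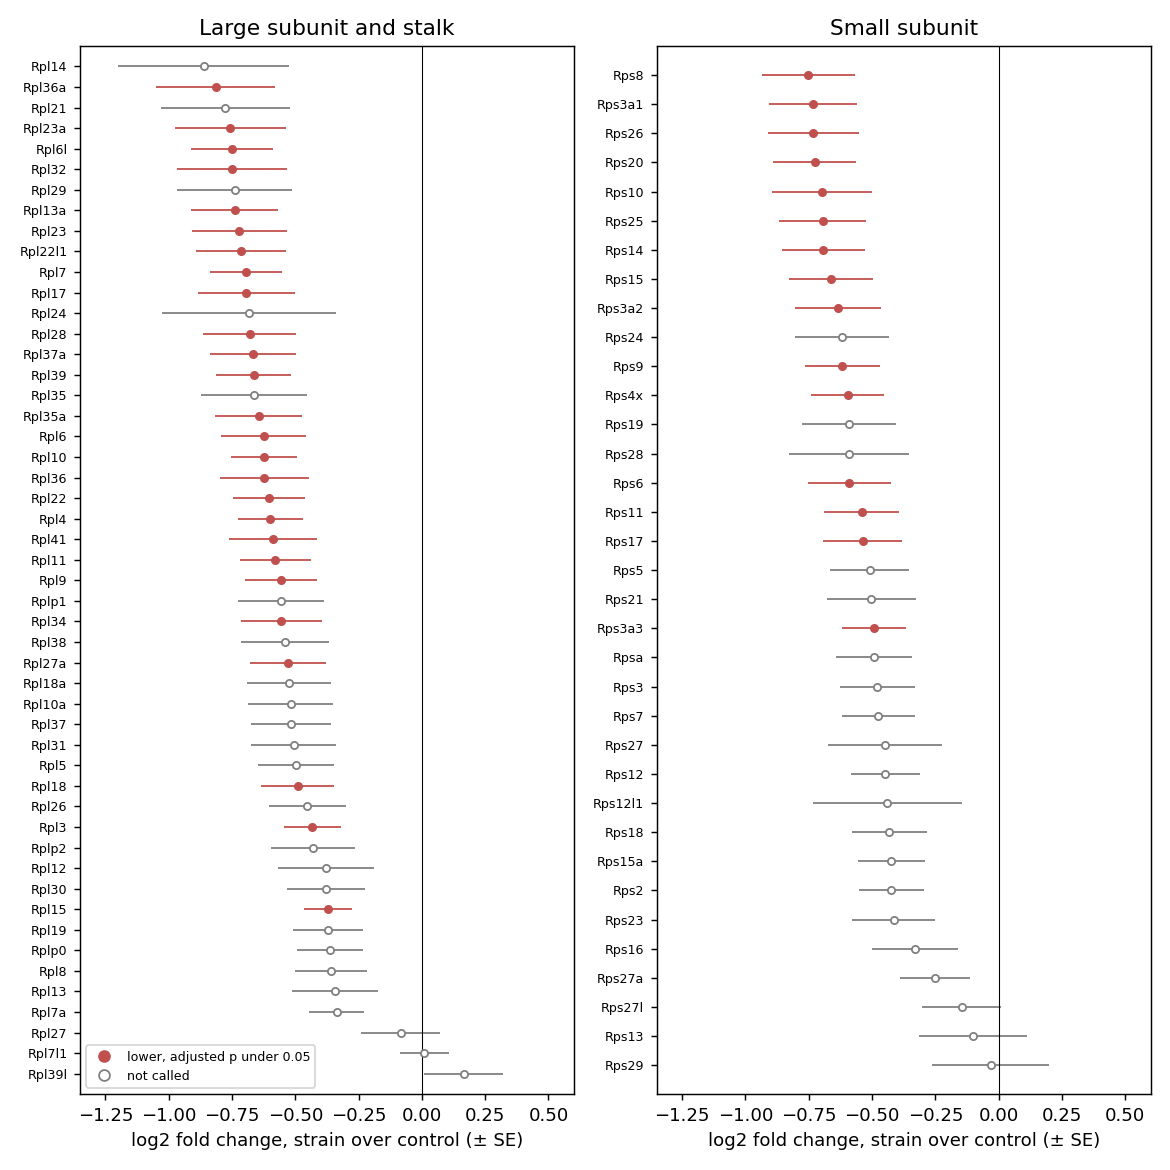
Log2 fold change of strain over control with its standard error for each tested large subunit and stalk row (left) and small subunit row (right); filled red points were lower at an adjusted p under 0.05 and open grey points were not called. The rows run from −0.86 at Rpl14 to 0.17 at Rpl39l, and Rpl39l and Rpl7l1 are the 2 rows above 0.

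In the large subunit, the lowest adjusted p belonged to Rpl7, which encodes a core protein of the particle. Rpl7 had 919, 737 and 799 CPM in strain replicates 1 to 3, against 1278, 1118 and 1576 CPM in control replicates 1 to 3. Every strain value was below every control value, and the log2 fold change was −0.69 (SE 0.14, adjusted p = 0.00968, edgeR), or −0.55 without control replicate 3 (adjusted p = 0.0147). Rpl10, whose protein joins late and completes the catalytic particle, had 324, 268 and 299 CPM in strained cells, against 435, 398 and 540.4 CPM in control cells. Its groups did not overlap either (log2 fold change −0.63, SE 0.13, adjusted p = 0.0114, edgeR). The highest adjusted p with a library left out was 0.0473 for Rpl7 and 0.0485 for Rpl10.

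The proteins of Rpl4 and Rpl39 line the tunnel through which the new chain leaves, and that of Rpl3 reaches towards the catalytic centre. Rpl4 had 1229, 1052 and 1137 CPM in strain libraries and 1647, 1505 and 2023 CPM in control libraries. For Rpl39 the values were 290.4, 268 and 305 CPM in strain libraries and 409, 386 and 574 CPM in control libraries. Both were lower without overlap, by log2 fold changes of −0.60 (adjusted p = 0.0127, edgeR) and −0.66 (adjusted p = 0.0155). Rpl3 had 630.3, 599.8 and 675 CPM in strain libraries and 807, 784 and 979 CPM in control libraries, and its smaller log2 fold change of −0.43 also passed (SE 0.11, adjusted p = 0.0330, edgeR). Without control replicate 3 it did not pass (adjusted p = 0.0519).

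Rpl5 and Rpl11 encode the pair of proteins that bind the 5S ribosomal RNA and, when free, can bind the p53 inhibitor MDM2. Rpl11 had 207, 202 and 233 CPM in strain libraries, against 285, 279 and 395 CPM in control libraries, and was lower (log2 fold change −0.58, SE 0.14, adjusted p = 0.0238, edgeR). Rpl5 had 49.5, 37.7 and 42.3 CPM in strain libraries, against 59.3, 50.4 and 73.1 CPM in control libraries. Its strain libraries also lay below all control libraries, but it did not pass (log2 fold change −0.50, SE 0.15, adjusted p = 0.0531, edgeR). Rpl13a, whose protein can leave the ribosome to block translation of inflammatory messenger RNAs in human monocytic cells, had 871, 646 and 729.6 CPM in strain libraries and 1170.0, 989.8 and 1591 CPM in control libraries, and was lower (log2 fold change −0.74, SE 0.17, adjusted p = 0.0203).

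Rpl38, which is known from mouse mutants for a role in translating Hox messenger RNAs, had 54.9, 51.1 and 56.1 CPM in strain libraries and 68.2, 62.4 and 105 CPM in control libraries. The groups did not overlap, but the control libraries were spread widely and the gene was not called (log2 fold change −0.54, SE 0.17, adjusted p = 0.0651). Rpl15 was the reverse case. It had 87.6, 87.0 and 90.5 CPM in strain libraries and 113, 107 and 122 CPM in control libraries, and it passed with a smaller log2 fold change of −0.37 and an SE of 0.09 (adjusted p = 0.0297, edgeR), with 3 strain values close together and below every control value.

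Of the stalk, which recruits the translation factors that use GTP, Rplp0 encodes the anchoring protein and Rplp1 and Rplp2 the acidic proteins. Rplp0 had 3442, 3514 and 4112 CPM in strain libraries, against 4362, 4320.2 and 5558 CPM in control libraries. Rplp1 had 1433, 1250.0 and 1489 CPM in strain libraries, against 1773, 1669 and 2691 CPM in control libraries. In both the strain libraries lay below every control library, and neither passed (log2 fold changes −0.36, adjusted p = 0.0897, and −0.56, adjusted p = 0.0566). Rplp2 overlapped, with 501, 485 and 605 CPM in strain libraries and 628, 592 and 925 CPM in control libraries (log2 fold change −0.43, SE 0.17, adjusted p = 0.116, edgeR).

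In the small subunit, Rps6 encodes the protein whose phosphorylation by S6 kinases serves as a readout of mTOR activity. Rps6 had 37.3, 24.5 and 26.6 CPM in strain libraries, against 45.8, 38.3 and 48.9 CPM in control libraries, and was lower (log2 fold change −0.59, SE 0.16, adjusted p = 0.0393, edgeR). Strain replicate 1 came close to the lowest control library, without overlap. Rps4x and Rps15, whose proteins sit in the body and the head of the subunit, moved by similar amounts. Rps4x had 1384, 1251 and 1399 CPM in strain libraries and 1856, 1715 and 2532 CPM in control libraries (log2 fold change −0.60, adjusted p = 0.0241, edgeR). Rps15 had 944, 828 and 975 CPM in strain libraries and 1266, 1190.2 and 1889 CPM in control libraries (log2 fold change −0.66, adjusted p = 0.0275, edgeR). In both, all 3 strain libraries lay below the control libraries.

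Rps14 and Rps26 encode neighbours on the platform of the small subunit near the exit of the messenger RNA, and RPS26 is among the genes mutated in Diamond-Blackfan anaemia in humans. Rps14 had 1361, 1295 and 1571 CPM in strain libraries, against 2006, 1895 and 2936 CPM in control libraries, and was lower (log2 fold change −0.69, adjusted p = 0.0210, edgeR). Rps26 had 564, 378 and 414 CPM in strain libraries, against 719, 602 and 929.7 CPM in control libraries, and was lower as well (log2 fold change −0.73, adjusted p = 0.0262, edgeR). Neither gene's groups overlapped. Rps20, a protein of the head, had 764, 601 and 668 CPM in strain libraries and 1011, 922 and 1428 CPM in control libraries (log2 fold change −0.73, adjusted p = 0.0169, edgeR). Rps25, which some viral RNAs need for internal initiation, had 247, 187 and 207 CPM in strain libraries and 313, 278 and 446 CPM in control libraries (log2 fold change −0.69, adjusted p = 0.0263, edgeR). For both, the lowest control library was above the highest strain library.

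Several well-known small subunit genes did not pass although all or most of their strain values were low. Rps3, whose protein lies at the entry of the messenger RNA, had 1116, 1038 and 1159 CPM in strain libraries and 1344, 1326 and 1946 CPM in control libraries (log2 fold change −0.48, adjusted p = 0.0585). Rpsa, also known as the laminin receptor, had 1413, 1201 and 1406 CPM in strain libraries and 1693, 1596 and 2364 CPM in control libraries (−0.49, adjusted p = 0.0563). Rps2 had 1972, 1702 and 1907 CPM in strain libraries and 2339.8, 2207 and 2939.9 CPM in control libraries (−0.42, adjusted p = 0.0527). In these 3 genes the groups did not overlap, and the adjusted p lay just above the threshold. Rps19, the gene most often mutated in Diamond-Blackfan anaemia in humans, had 403, 284 and 322 CPM in strain libraries and 462, 399 and 659.7 CPM in control libraries. Strain replicate 1 reached above control replicate 2, and the gene was not called (log2 fold change −0.59, SE 0.19, adjusted p = 0.0599, edgeR).

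The 4 tested paralogues, near copies of a core gene, did not behave as a block. Rpl22l1, which can take the place of Rpl22, had 118, 87.6 and 95.1 CPM in strain libraries and 157, 126 and 209.9 CPM in control libraries, and was lower (log2 fold change −0.71, adjusted p = 0.0263, edgeR). Its partner Rpl22 had 296, 257 and 271 CPM in strain libraries and 379, 356 and 518 CPM in control libraries (log2 fold change −0.60, adjusted p = 0.0206, edgeR). Both members of that pair were lower, without overlap between groups.

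Rpl39l, the paralogue of Rpl39 known for its role in mouse sperm, had 19, 17.2 and 18.7 CPM in strain libraries, against 14.1, 14.5 and 20.5 CPM in control libraries (log2 fold change 0.17, SE 0.16, adjusted p = 0.513, edgeR). Rpl7l1, whose yeast relative works in ribosome assembly, had 131, 117 and 119 CPM in strain libraries, against 119, 117 and 128 CPM in control libraries (0.01, SE 0.10, adjusted p = 0.957). Rps27l, a p53 target gene, had 78.8, 65.2 and 67.0 CPM in strain libraries, against 70.9, 64.0 and 98.8 CPM in control libraries (−0.15, SE 0.16, adjusted p = 0.569). All 3 overlapped between the groups.

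To ask which members departed from the rest, the summed member counts were used as the scale of each library in place of all genes. On that scale 0 members were lower and 2 were higher, against 1.49% lower and 30.4% higher among all tested genes. That contrast is in part built in, since the members set the scale and so centre near 0. A gene unchanged on the scale of all genes then reads as higher. The 2 higher members were Rpl39l, with a log2 fold change of 0.71 relative to the member total (SE 0.17, adjusted p = 0.0220, edgeR), and Rpl7l1, with 0.53 (SE 0.18, adjusted p = 0.0479). On the scale of all genes neither passed the test. Without control replicate 3 the log2 fold change of Rpl39l on that scale was 0.36 (SE 0.12, adjusted p = 0.0823, edgeR), with every strain value above control replicates 1 and 2, and that of Rpl7l1 was 0.05 (adjusted p = 0.777). The unadjusted p on the scale of the member total was under 0.05 for 0 members in the lower direction and for 3 in the higher. Of the 77 main copies 66 lay within 0.2 of the median log2 fold change of the main copies. At the ends of the range were Rpl14, Rpl36a and Rpl21, the 3 lowest, and Rps29, Rpl7l1 and Rpl39l, the 3 highest.

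The lowest fold changes belonged to genes in which strain replicate 1 stood apart. Rpl14 had 171 CPM in strain replicate 1 but 63.6 and 70.2 CPM in strain replicates 2 and 3, against 207, 128 and 219.8 CPM in the control libraries. Its log2 fold change of −0.86 had an SE of 0.34 and did not pass (adjusted p = 0.119, edgeR). Rpl21 likewise had 191, 97.5 and 102 CPM in strain libraries, against 229.7, 164 and 275 CPM in control libraries (log2 fold change −0.78, SE 0.26, adjusted p = 0.0693, edgeR). Rpl36a had 23.4, 13.6 and 11.9 CPM in strain libraries, against 29.1, 23.2 and 33.9 CPM in control libraries, and did pass (log2 fold change −0.81, SE 0.24, adjusted p = 0.0457, edgeR) although strain replicate 1 reached just above control replicate 2.

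Rpl24, whose protein bridges the subunits, gave the largest such gap, with 160.3, 61.8 and 58.2 CPM in strain libraries, against 169, 108 and 173 CPM in control libraries. Strain replicate 1 was above the mean of strain replicates 2 and 3 by 1.42 on the log2 scale in Rpl24 and by 1.36 in Rpl14. It was the highest strain library in 52 of the 85 members, against 38.1% of all tested genes, and in 21 members it was above the lowest control library, against 68.6% of all tested genes. Across the 77 main copies the gap between strain replicate 1 and the other strain libraries went with that between control replicates 1 and 2 (Pearson r = 0.78, Spearman rho = 0.68), in which Rpl14 and Rpl24 are again the most extreme. With the gap of control replicate 3 over the other controls r was −0.24. These correlations are over genes of the same 6 libraries, and genes are not independent replicates.

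**Figure D4:**
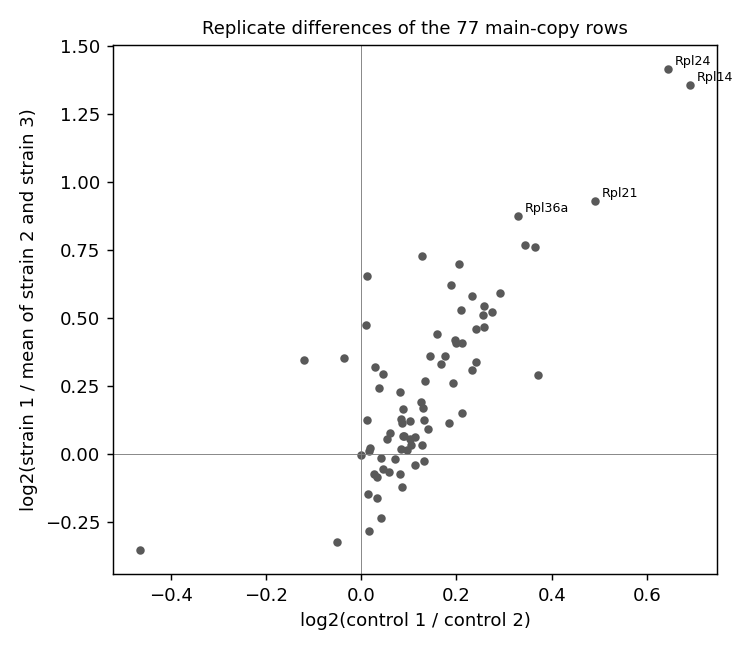
Differences between replicates for the 77 main-copy rows: log2 of control replicate 1 over control replicate 2 (horizontal axis) and log2 of strain replicate 1 over the mean of strain replicates 2 and 3 (vertical axis); each point is a gene. Rpl14, Rpl24, Rpl21 and Rpl36a lie at the upper right, with strain replicate 1 above the other strain libraries and control replicate 1 above control replicate 2. In each of them control replicate 3, which is not plotted, was the highest control library.

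Ribosomal protein genes have many near-identical processed pseudogenes, and a read that matches both may be credited to either or to neither. The table held 301 rows named as pseudogenes of these genes, and 175 of them had at least 1 read. For 63 members at least 1 such row was listed, and in 13 families the pseudogene rows held more reads than the member. Pseudogene rows took 98.0% of the reads of the Rps13 family, 93.1% of those of Rpl17, 93.0% of those of Rps23 and 91.4% of those of Rpl10a. Among members named earlier the share was 87.2% for Rps10, 81.7% for Rpl36a, 80.5% for Rpl28, 63.2% for Rpl38 and 51.6% for Rpl14. The values of such members are uncertain for that reason. Of the 105 tested pseudogene rows 23 were lower and 0 were higher (56 lower and 0 higher at an unadjusted p under 0.05, 43 and 0 by DESeq2, 23 and 0 by limma-voom), with a median log2 fold change of −0.56, the same to 2 decimals as that of the members.

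With the reads of the named pseudogene rows added to their member, 50 members were lower, among them all 41 called alone; this alternative was chosen after the data were seen. Rps13 alone had 3.36, 2.46 and 2.93 CPM in strain libraries and 2.95, 2.89 and 3.56 CPM in control libraries (log2 fold change −0.10, adjusted p = 0.789, edgeR). With its pseudogene rows it had 150.5, 94.2 and 100.5 CPM in strain libraries and 176, 154 and 238 CPM in control libraries, and was lower (log2 fold change −0.72, SE 0.20, adjusted p = 0.0378, edgeR). The sum did not overlap between groups, while the row of the member did. Rpl10a alone had 36.7, 24.0 and 22.6 CPM in strain libraries and 39.0, 38.7 and 41.5 CPM in control libraries, not called (log2 fold change −0.52, adjusted p = 0.0682, edgeR), and its sum was lower (−0.67, adjusted p = 0.00694).

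The row Rpl14-ps1 did not share the gap of Rpl14 between strain libraries. It had 127, 111 and 129.8 CPM in strain libraries, against 173, 154 and 224 CPM in control libraries, and was lower without overlap (log2 fold change −0.58, adjusted p = 0.0218, edgeR). With the reads of that row added, Rpl14 was called lower (log2 fold change −0.72, adjusted p = 0.0444, edgeR). The groups of that sum still overlapped. Among the members that RefSeq lists as pseudogenes, Rpl6l had 25, 21.6 and 24.3 CPM in strain libraries, against 36.8, 31.9 and 50.6 CPM in control libraries (log2 fold change −0.75, adjusted p = 0.0139, edgeR). Rps29 had 2.35, 3.15 and 2.86 CPM in strain libraries and 2.22, 3.06 and 3.27 CPM in control libraries, which overlapped, and gave a log2 fold change of −0.03; no row named as its pseudogene was listed.

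The other genes of the translation machinery did not all share the difference. Of 20 other messenger RNAs known to carry the TOP motif 7 were lower and 0 were higher, and the median log2 fold change was −0.40 (16 and 0 at an unadjusted p under 0.05, 12 and 0 by DESeq2, 8 and 0 by limma-voom). With 1 library left out the count of lower genes lay between 1 and 11. Eef1b2, which encodes a subunit of the factor that recharges the elongation factor with GTP, had 619, 469 and 499 CPM in strain libraries, against 778, 662 and 983 CPM in control libraries (log2 fold change −0.61, adjusted p = 0.0298, edgeR). Naca, which encodes a chaperone subunit at the ribosome's exit, had 249, 219 and 249 CPM in strain libraries, against 320.1, 297 and 408 CPM in control libraries (−0.52, adjusted p = 0.0266). Fau, whose protein carries the small subunit protein eS30 as a fusion, had 37.4, 32.4 and 39.0 CPM in strain libraries, against 47.8, 48.0 and 65.4 CPM in control libraries (−0.57, adjusted p = 0.0264). In these 3 genes the groups did not overlap and control replicate 3 was highest. Of 5 genes that encode ribosomal proteins under names outside the rule, Fau was the 1 called, lower (0 higher; 4 and 0 at an unadjusted p under 0.05, 2 and 0 by DESeq2 and by limma-voom).

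Eif4b, which encodes a helicase cofactor of translation initiation, was lower without that feature. It had 636, 701 and 708 CPM in strain libraries, against 1003, 957 and 993 CPM in control libraries (log2 fold change −0.53, SE 0.10, adjusted p = 0.00551, edgeR), and control replicate 1 was its highest library. Its call held with each of the 6 libraries left out (highest adjusted p 0.0412), while the other 6 called genes of the list, among them Gas5, Btf3 and Hnrnpa1, each lost theirs without at least 3 of the 6.

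Host genes of small nucleolar RNAs, several of which also carry the TOP motif, gave 6 lower and 0 higher of 11, with a median of −0.62 (10 and 0 at an unadjusted p under 0.05, 9 and 0 by DESeq2, 6 and 0 by limma-voom). Gas5, a member of both lists, had 323, 219 and 264 CPM in strain libraries, against 393, 373 and 471 CPM in control libraries (log2 fold change −0.62, adjusted p = 0.0230, edgeR). Snhg12 had 59.4, 35.5 and 43.6 CPM in strain libraries, against 74.4, 68.8 and 92.1 CPM in control libraries (−0.76, adjusted p = 0.0206). The others called were Epb41l4aos, Zfas1, Snhg5 and Snhg1, and the calls of Zfas1 and Snhg5 held with each library left out (highest adjusted p 0.0361 and 0.0340). With 1 library left out 2 to 9 of the 11 were lower. Strain replicate 1 was the highest strain library in 10 of the 11.

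Of 73 ribosome assembly and nucleolar factors 0 were lower and 2 were higher, with a median log2 fold change of 0.06 (1 lower and 12 higher at an unadjusted p under 0.05, 1 and 4 by DESeq2, 0 and 2 by limma-voom). Utp20, which encodes a large protein of the early small subunit precursor, had 64.1, 62.3 and 58.6 CPM in strain libraries, against 47.0, 42.8 and 30.2 CPM in control libraries (log2 fold change 0.62, adjusted p = 0.0234, edgeR). Dhx37, a helicase of the same precursor, had 39.8, 37.1 and 39.2 CPM in strain libraries, against 30.5, 29.7 and 28.2 CPM in control libraries (0.39, adjusted p = 0.0280). In both the strain libraries were all above the control libraries, the opposite direction from the ribosomal proteins. The call of Utp20 was lost without any 1 of the 3 strain libraries (adjusted p up to 0.0667), and that of Dhx37 without any library but control replicate 3 (up to 0.105). Control replicate 3 lay above the other controls by a median of 0.49 on the log2 scale in the members and of 0.02 in the assembly factors. The excess was not particular to the members. Its median was 0.37 in mitochondrial ribosomal proteins, 0.36 in small nucleolar RNA host genes and 0.27 in the other TOP messenger RNAs. In initiation factors it was 0.14, and over all tested genes −0.002.

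Initiation factors had 2 lower (Eif1b and Eif4b) and 1 higher (Eif4g1) of 36, with a median of −0.05 (8 and 3 at an unadjusted p under 0.05, 4 and 1 by DESeq2, 2 and 1 by limma-voom), and elongation factors had 1 lower (Eef1b2) and 0 higher of 13, with a median of −0.12 (5 and 1 at an unadjusted p under 0.05, 4 and 0 by DESeq2, 2 and 0 by limma-voom). RNA polymerase I and its factors had 1 lower (Taf1d) and 0 higher of 12 (2 and 2 at an unadjusted p under 0.05 and by DESeq2, 1 and 1 by limma-voom). Chaperones and importers of ribosomal proteins had 0 lower and 1 higher (Ipo5) of 15 (1 and 3 at an unadjusted p under 0.05, 0 and 1 by DESeq2 and by limma-voom). Of these called genes Eif1b and Eif4b alone kept the call with each library left out. The signalling genes that act on TOP messenger RNAs had 0 lower and 0 higher of 27 by edgeR (1 lower and 5 higher at an unadjusted p under 0.05, 0 and 3 by DESeq2, 0 and 0 by limma-voom). Larp1 had 369, 348 and 377 CPM in strain libraries and 360, 352 and 373 CPM in control libraries, overlapping (log2 fold change 0.01, SE 0.09, adjusted p = 0.947, edgeR). Ribosome rescue genes had 0 lower and 0 higher of 12 (1 lower and 3 higher at an unadjusted p under 0.05, 1 and 1 by DESeq2, 0 and 0 by limma-voom).

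Mitochondrial ribosomal proteins, which build a separate ribosome, had 1 lower and 0 higher of 76, with a median log2 fold change of −0.07 and 54 values below 0 (11 and 2 at an unadjusted p under 0.05, 3 and 1 by DESeq2, 1 and 0 by limma-voom). Without control replicate 3 their median was 0.02, with 2 lower and 7 higher at an unadjusted p under 0.05 (edgeR). In the p53 group that free Rpl5 and Rpl11 act on, 1 of 9 was lower and 2 were higher (1 and 5 at an unadjusted p under 0.05, 1 and 3 by DESeq2 and by limma-voom). Mdm2, which encodes the p53 inhibitor, had 176, 140.3 and 124 CPM in strain libraries, against 103, 99.1 and 90.9 CPM in control libraries (log2 fold change 0.59, SE 0.13, adjusted p = 0.0166, edgeR). Ccng1, a p53 target gene, had 228, 211 and 203 CPM in strain libraries, against 142, 145 and 115 CPM in control libraries (0.68, adjusted p = 0.00351). Bbc3, another p53 target gene, was lower (log2 fold change −0.55, adjusted p = 0.0244). The calls of Mdm2 and Ccng1 held with each library left out (highest adjusted p 0.0485 and 0.0172), and that of Bbc3 was lost without strain replicate 2 or 3 or control replicate 1 or 3 (up to 0.0906). The lists overlap one another, and no test compared a list with the ribosomal proteins.

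**Figure D5:**
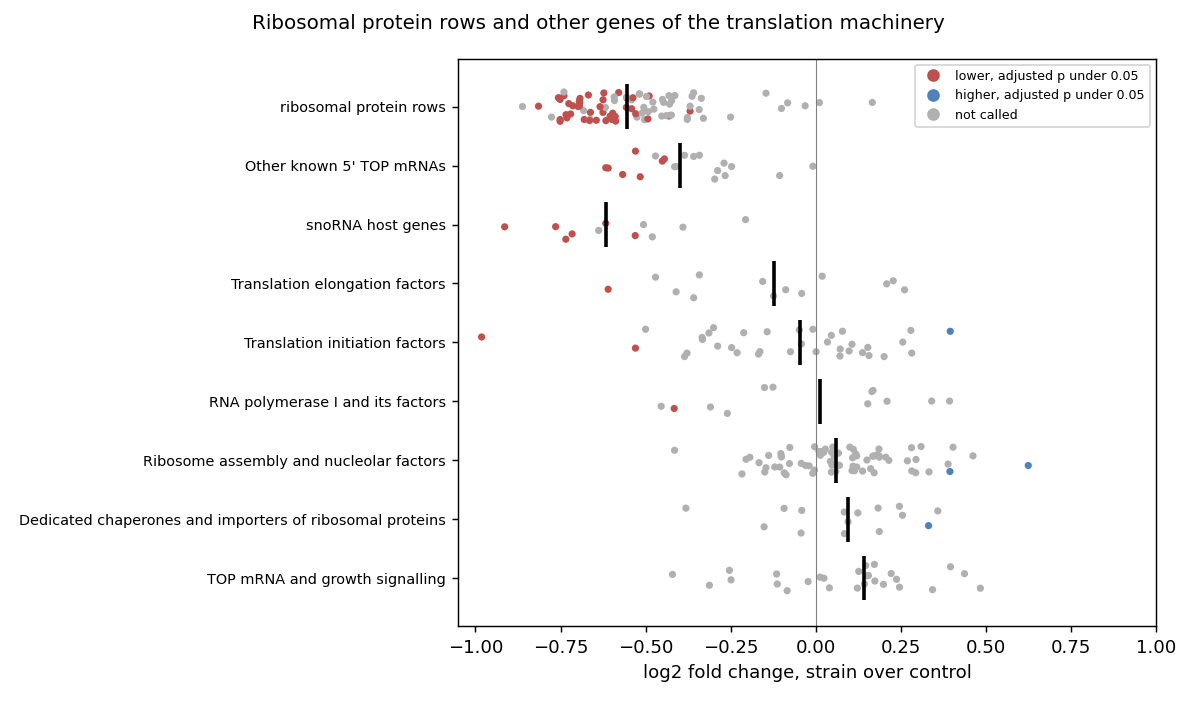
Log2 fold change of strain over control for the ribosomal protein rows (top) and for other lists of the translation machinery (below); each point is a gene, red and blue mark genes lower and higher at an adjusted p under 0.05 and black bars are medians. The medians are −0.56 for the ribosomal protein rows and 0.06 for the assembly factors.

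Over the 6 libraries the genes whose CPM followed the summed members most closely were Fbxl15, Gm10275, Rpl17-ps3, Rpl3-ps1 and Naca, with Pearson r between 0.997 and 0.999 on log2(CPM + 0.5). The 6 libraries form 2 groups, with control replicate 3 apart, so such a value describes likeness over these libraries only. Fbxl15 encodes an F-box protein and had 14.4, 11.4 and 13.9 CPM in strain libraries, against 19.3, 17.1 and 28.7 CPM in control libraries.

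The libraries were checked for markers of cell types. The 12 fibroblast and mesenchymal markers summed to 59313 to 70781 CPM in strain libraries and 80313 to 88665 CPM in control libraries, and 5 of the 11 tested were lower. The 6 epithelial markers, 2 of them at 0 in every library, summed to 3.15 to 7.90 CPM in strain libraries and 26.6 to 38.4 CPM in control libraries. The 2 that were tested, Cdh1 and Krt19, were both lower, and their calls held with each library left out. Of the 8 blood and immune markers 4 were at 0 in every library, and the list summed to 32.1 to 32.9 CPM in strain libraries and 18.0 to 23.1 CPM in control libraries. Of the 3 tested, 2 were not called and Cd14 was higher. Cd14 had 17.8, 15.95 and 19.4 CPM in strain libraries and 6.48, 6.32 and 8.22 CPM in control libraries (log2 fold change 1.34, adjusted p = 0.000376, edgeR), and its call held with each library left out. The muscle markers summed to 1.90 to 2.02 CPM in strain libraries and 3.17 to 3.95 CPM in control libraries. Of the 2 tested, Des was lower, and its call was lost with any library left out. The sums of endothelial, neural and fat markers overlapped between the groups and reached at most 57.2 CPM. Of the 2 tested fat markers Fabp4 was higher, and its call held in 1 of the 6 fits with a library left out. The part of these shifts in the ribosomal protein difference was not tested.

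Whether the chromatin at these genes was open was read from the ATAC-seq peak lists, called by the authors separately for each library. A peak lay within 500 bases of the annotated start for 55 and 50 of 64 members (85.9% and 78.1%) in Piezo1 knockout replicates 1 and 2, against 39 and 54 members (60.9% and 84.4%) in GFP replicates 1 and 2. Over all 26794 genes with a promoter the shares were 24.9% and 24.9% in knockout libraries and 23.8% and 31.7% in GFP libraries. The lists held 15980 and 13610 peaks in knockout libraries and 15978 and 26652 in GFP libraries, so the shares are not on an equal footing between libraries, and no test between genotypes was made.

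Peaks were present in all 4 libraries for 36 of the 64 members (56.2%), against 5203 genes in all (19.4%), and in none for 6 members. The 6 were Rpl3l, Rpl10l, Rpl32l, Rpl39l, Rps23 and Rps25, of which the first 3 were also too low in RNA for the test. Rps25, described above with its RNA values, was thus expressed in the strain set with no peak listed near its annotated start. The same held for Rpl39l, also described above, and for Rps23, which had 15.4 to 27.9 CPM over the RNA-seq libraries. Rpl6 and Rpl34, both large subunit genes, had a peak in both knockout libraries and in neither GFP library. They are 3.12% of the 64 members, against 55 of all 26794 genes (0.205%). The converse held for 0 members, against 431 of all genes (1.61%). The authors' fold enrichment over the local background was 5.63 and 5.43 at Rpl6 and 6.57 and 4.57 at Rpl34.

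Promoter windows of 300 bases, from 250 before the annotated start to 50 after it, were searched for short motifs on both strands. The motif CCGGAAG, a core bound by ETS-family factors, was found in 26 of the 64 member promoters (40.6%), against 9.93% of all 27025 promoters. It lies in the window printed for Rpl38 and at the start of that of Rps10. AAGATGGC, a core of the YY1 motif, was in 6 (9.38%, against 3.19%), and TATAAA, the TATA box, in 8 (12.5%, against 15.7%). The pyrimidine-rich CTCTTTCC was in 10 (15.6%, against 3.57%), and in Rpl28 and Rpl35a it is the run in capitals itself. A match shows only that the letters are present, and nothing was measured here of the factors.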

How the data were processed

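RNA-seq values were read from the count table that the authors deposited, which holds whole numbers for 46095 gene symbols and no row outside genes. The submitters' processing notes name Trim Galore 0.6.5, STAR, HTSeq, DESeq2 and mm10. How HTSeq treated strand and multiply mapping reads is not given in the sources used here. Per the labels' protocols the cDNA was amplified by a single-cell full-length method, so a read is not necessarily a molecule of its own. The ATAC-seq peak lists that the authors deposited, 1 per library, were made from 50000 nuclei per reaction with Bowtie2 2.4.2 and MACS2, per the labels and the submitters' processing notes. Their score, fold enrichment (a ratio within each library), −log10 p and −log10 q are the authors' deposited values and were used only within a list. Peak lists leave their read depth unknown.

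Strain was compared with control by edgeR 4.0.16 (glmQLFit and glmQLFTest, two-sided, R 4.3.3) on the whole table after TMM scaling and filterByExpr (minimum count 10), which kept 15335 genes. Calls needed an adjusted p under 0.05 (Benjamini-Hochberg over all of these). CPM are TMM-scaled, and the SE is the absolute log2 fold change over the square root of F. Alternatives were DESeq2 1.42.0, limma 3.58.1 (voom), other scalings and filters, left-out libraries and a replicate block, and the scripts were checked on simulated data. Replicate pairs differed by more than sampling noise (chi-square per degree of freedom at least 9.19), at 44.3 and 34.7 for strain replicate 1 against strain replicates 2 and 3, and 37.5 and 59.6 for control replicate 3 against control replicates 1 and 2. Members and gene lists were chosen with earlier results of these data known. Values per library are given for members described by role, the paralogues, the 5 called members of smallest adjusted p, the 3 highest and 3 lowest fold changes, and genes a result turned on, the last chosen after their values were seen.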

Additional observations from a re-analysis of the deposited data

How the results depend on the processing

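With all libraries 41 members were lower. Scaling by library size alone gave 28, upper-quartile scaling 54 and TMM without the member rows 41. A filter of at least 1 CPM in 3 libraries gave 43, as did limma-voom. The count was 64 with DESeq2, 73 with no filter on low counts, 71 with the replicate number as a block and 63 without strain replicate 1 and control replicate 3 together, an alternative chosen after the data were seen. With 1 library left out it lay between 2 and 64. It stayed at 0 higher in all of these fits. Of all tested genes 1134 were lower and 911 higher. With 1 library left out these lay between 577 and 1244 and between 369 and 1085, and without the 2 libraries just named they were 1614 and 1512. The higher count was 1428 with no filter and 1557 with the block, and the lower count was 1574 and 1619. With library size alone 935 genes were lower and 1169 higher. The labels do not say that the replicate numbers pair the libraries. Deviations of same-numbered libraries correlated at 0.047, 0.316 and 0.159 for numbers 1 to 3. Strain replicates 2 and 3 correlated best with their own number and strain replicate 1 with control replicate 3 (0.124), so the block was kept as an alternative. The median log2 fold change of the members moved by less than the spread between replicates in every alternative run. So did the ratio of their summed CPM in the alternatives for which it was computed (scalings, left-out libraries and added pseudogene rows). That spread includes control replicate 3 itself, so it is a wide measure for leaving that library out. Without it the median went from −0.56 to −0.36 and the ratio from 0.686 to 0.780.

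Among named genes, the sign turned in 3 that were not called. For Rpl7l1 the log2 fold change was −0.033 with upper-quartile scaling and between −0.042 and 0.051 with libraries left out. For Rps27l it was between −0.27 and 0.061 with libraries left out, the last without control replicate 3. For Rps29 it was 0.018 with library size alone and between −0.18 and 0.19 with libraries left out. The cause was not tested. Member promoter shares stayed within their binomial intervals with peaks of −log10 q of at least 5, with a window of 250 bases and with summits only. Those intervals are wide, since they rest on 64 genes, and they take genes as independent. The shares of all genes fell below theirs in each of these settings, for example from 24.9% to 22.9% in knockout replicate 1 with the limit on q.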
